A study of Mus musculus with 12 samples.

Results

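Malat1 and Neat1 are a pair of neighbouring long noncoding RNA (lncRNA) genes whose transcripts stay in the nucleus, and they were followed through an experiment that captured double-stranded RNA (dsRNA) from mouse intestinal epithelium. They were chosen by name, not by their values, and are 2 of the 48526 gene rows counted in each library. The epithelium, titled whole intestine in the labels and described in their extraction protocol as coming from the proximal small intestine, was that of 4 female mice aged 3 months, and each animal gave an input library and a pulldown with each of the dsRNA antibodies J2 and K1, 12 libraries in 6 groups of 2. In 2 animals the acetyltransferase genes Kat2a and Kat2b were deleted in the adult by 4 daily tamoxifen injections of 100 mg/kg (KAT2A/KAT2B DKO). The 2 control animals received injections of the solvent, 10% ethanol and 90% corn oil, for the same period. Cells were collected with EDTA 2 days later. Deletion and tamoxifen exposure cannot be told apart, and the driver of the deletion and the alleles of the control animals are not given in the sources used here. The J2 and K1 comparisons with input share each animal's input library.

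Malat1 is an abundant nuclear transcript found at nuclear speckles, bodies rich in splicing factors. Neat1 is the RNA around which paraspeckles assemble, together with proteins such as NONO, SFPQ and PSPC1, and paraspeckles are known to hold transcripts with paired inverted repeats. Neither transcript ends in an ordinary poly(A) tail at its longest form: RNase P cuts off a tRNA-like piece, and the new 3′ end is protected by a triple helix formed by U-rich and A-rich stretches. J2 and K1 recognise the dsRNA helix whatever its sequence, so a transcript can be captured through paired stretches within it or with another RNA.

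That triple-helix element is the sequence the pair has in common, and it is printed here for that reason. Both genes lie on the minus strand of chromosome 19 in GRCm38 (GENCODE M21 annotation, type lincRNA), 22035 bases apart. Malat1 (ENSMUSG00000092341.2 in the count tables) spans chr19:5795690-5802672 and its longest transcript, Malat1-201, is a single exon of 6983 bases. Neat1 (ENSMUSG00000092274.2) spans chr19:5824708-5845478, with the long form Neat1-201 as a single exon of 20771 bases. The short form Neat1-202 has 3004 bases in 2 exons. In the lines below, written 5′ to 3′ on the transcript strand with T for U, capitals mark the motif TTTTGCTTTT and its reverse complement AAAAGCAAAA. The Malat1 element lies in the exon at chr19:5795982-5796072 and the Neat1 element at chr19:5824708-5824805, at the 3′ end of the annotated exon.
Malat1 3′ element: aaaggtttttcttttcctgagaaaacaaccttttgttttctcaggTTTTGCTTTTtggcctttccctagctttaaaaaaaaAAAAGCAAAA
Neat1 3′ element: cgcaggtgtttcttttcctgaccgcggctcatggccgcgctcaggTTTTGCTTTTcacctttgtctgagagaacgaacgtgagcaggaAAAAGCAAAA
The motifs are separated by 26 bases in Malat1 and 33 in Neat1. In Malat1 the A-rich motif ends 292 bases before the annotated 3′ end, so the annotated transcript includes sequence downstream of it, while in Neat1 it ends 0 bases from the annotated end. The motif followed by its reverse complement within 100 bases was searched on the transcript strand of the longest transcript of every gene. It was found in 2 of 48058 genes (0.00416%), and these were Malat1 and Neat1. The pattern was set to the motif that these 2 genes carry, so their own matches were fixed in advance. A match of letters is a description of the sequence and does not show that a helix forms.

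The genes differed in the long inverted repeats that could give an RNA duplex within the transcript. A comparison of each longest transcript with its own reverse complement (blastn, e-value limit 1e-3, word size 7) returned 7 inverted pairs in Neat1 and 0 in Malat1. The longest Neat1 pair is shown because it is the longest stretch in the pair of genes that could pair with itself. Its arms lie within the exon of Neat1-201, at chr19:5834125-5834264 (transcript bases 11215 to 11354) and chr19:5830409-5830549 (bases 14930 to 15070). Whether they overlap exons of the shorter Neat1 transcripts is not given here. Capitals mark bases that pair as complements in the alignment.
Neat1 first arm: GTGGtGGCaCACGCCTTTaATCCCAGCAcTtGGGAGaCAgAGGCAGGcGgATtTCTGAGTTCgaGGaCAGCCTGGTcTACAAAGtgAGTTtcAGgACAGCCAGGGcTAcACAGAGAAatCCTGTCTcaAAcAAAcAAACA
Neat1 second arm: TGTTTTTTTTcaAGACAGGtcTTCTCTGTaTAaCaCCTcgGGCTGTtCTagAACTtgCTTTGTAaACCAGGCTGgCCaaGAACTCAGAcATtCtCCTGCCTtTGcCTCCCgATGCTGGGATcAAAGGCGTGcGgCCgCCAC
The alignment covers 144 columns, of which 113 (78.5%) are complementary, with 3575 bases between the arms. RNAduplex placed 118 base pairs between the arms, and the longest helix without interruption had 14 pairs. Among 1250 lncRNA genes that passed the count filter, 37 (2.96%) held an inverted repeat of at least 100 columns in their longest transcript, and among the 49 of these genes with a transcript of at least 5 kb the number was 6 (12.2%). In control animals the median log2 fold change of J2 over input was -0.59 for those 6 genes and -1.12 for the 43 long lncRNA genes without such a repeat, and for K1 it was -2.13 and -2.22. Over all tested lncRNA genes, whatever their length, the J2 median was 0.18 with such a repeat and -1.10 without one, and the K1 median -0.54 with and -2.12 without. A gene counted in input alone could pass the filter and had to be lower in the pulldown. Neat1 itself counts among the genes with a repeat and Malat1 among those without. Genes with and without a repeat were not matched for count level. These medians are therefore descriptions of the fits given below, and a part of the repeats in capture was not tested.

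Input libraries held 10307281 to 11474107 counts assigned to genes and control pulldowns 13308021 to 16139531. DKO pulldowns held fewer, 5826361 and 2691285 counts with J2 and 5559033 and 2220291 with K1 for animals 1 and 2. Replicates correlated (Pearson's r of log2 CPM across genes) at 0.984 or above in the input and control pulldown groups. The values were 0.901 in DKO J2 and 0.929 in DKO K1, so the DKO pulldowns of animals 1 and 2 stand apart from each other. Most results for Malat1 and Neat1 that rest on them are also given without each. Results for markers and gene lists in DKO pulldowns rest on both DKO animals unless stated. The deleted genes were lower in DKO input, with log2 fold changes of -1.51 for Kat2b (adjusted p = 6.31e-04) and -0.88 for Kat2a (adjusted p = 0.0205). All 8 epithelial markers were detected in every library, with summed levels of 4136 to 9617 CPM (counts scaled to a common library size). The 8 leukocyte markers summed to 66.1 and 78.3 CPM in control input and 40.4 and 43.3 in DKO input. The 8 markers of stroma, vessels and muscle summed to 2.52 to 7.41 CPM in input and 3.35 to 37.5 in control pulldowns, but 42.7 to 155 in DKO pulldowns. In the DKO pulldowns most of this sum was collagen RNA. The defining markers Cdh5 and Acta2 had at most 1 raw count there, Myh11 had 2 to 8 and Pdgfra 0 to 10. Pecam1 had 8 to 10 in 3 of them and 37 in the J2 pulldown of animal 2, against 13 to 24 in input. The DKO pulldowns are smaller libraries than the inputs, so these raw counts do not compare levels. By edgeR, 4 of 4 tested markers of this list were called higher than input in DKO J2 (100%, against 12.2% of all genes). In DKO K1 it was 3 of 4 (75%, against 14.6%), and in control 0 with J2 and 2 with K1. Erythroid markers summed to at most 4.18 CPM and neuronal and glial markers to at most 2.97. The part of these other cell types in the results below was not tested.

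Malat1 was among the genes with the most counts in input. It had 30692 and 34629 counts in control input and 74326 and 61347 in DKO input. The J2 pulldowns of control animals held 11999 and 10566 and those of DKO animals 13123 and 27962. For K1 the values were 4788 and 3133 against 8585 and 11384. By count it ranked 22 to 24 among all genes in control input and 12 in both DKO inputs, at rank 665 and 947 in control K1, and at rank 6 in the J2 pulldown of DKO animal 2. A long exon collects more counts. With counts divided by exon length (TPM), Malat1 ranked 89 and 87 in control input and 30 and 41 in DKO input. In control K1 its ranks by TPM were 1126 and 1534. Among lncRNA rows it ranked 2 or 3 by count in every library, behind Gm26917 and, in control pulldowns, also Gm3054. Its share of a library's counts was highest in the J2 pulldown of DKO animal 2, at 1.04% (95% exact binomial interval 1.03 to 1.05), and lowest in the K1 pulldown of control animal 2, at 0.0223% (0.0215 to 0.0231). Such intervals cover counting error only.

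Neat1 was counted far less often. It had 3180 and 3075 counts in control input, and 7654 and 4670 in DKO input. The J2 pulldowns held 843 and 689 Neat1 counts from control animals against 591 and 395 from DKO animals, and the K1 pulldowns 409 and 309 against 428 and 205. Its rank by count was 464 and 582 in control input, 143 and 272 in DKO input, and 5629 and 5901 in control K1. Per kilobase of annotated exon, control inputs held 28.7 and 33.5 Malat1 counts for each Neat1 count. This ratio spreads the Neat1 counts over the whole long form, and gene-level counts do not separate the long form, which builds paraspeckles, from the short form that shares its 5′ end. The annotated small RNA and unclassified rows that overlap the genes (Gm27694 and Gm37376 in Malat1, and Gm27533, Gm27505 and Gm28006 in Neat1) had 0 counts in all 12 libraries.

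**Figure D1:**
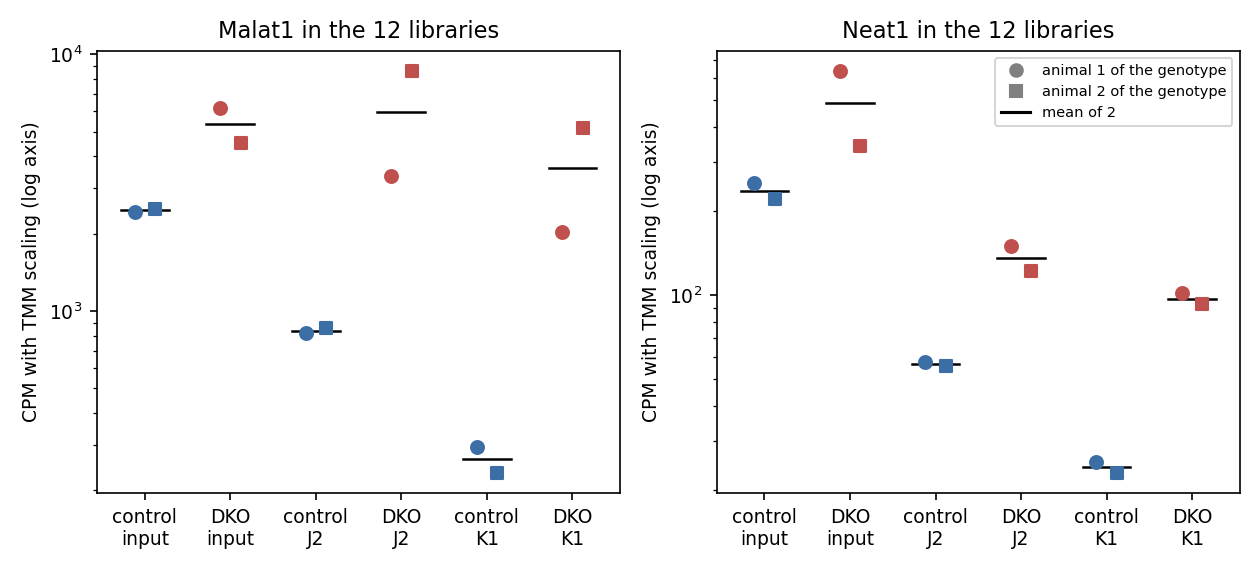
CPM with TMM scaling (log axis) of Malat1 (left) and Neat1 (right) in the 12 libraries, with control in blue, DKO in red, a point per animal and a line at the mean of 2. Both DKO values lie above both control values in every kind of library for both genes. The share of all genes separated in this way was not counted. The DKO pulldown values of Malat1 are far apart.

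Both transcripts were higher in DKO than in control in input RNA, about 2-fold for each. TMM scaling adjusts library sizes on the assumption that most genes do not differ between libraries. After it, Malat1 stood at 2439 and 2493 CPM in control input and at 6189 and 4504 CPM in DKO input. Neat1 stood at 253 and 221 CPM in control and at 637 and 343 CPM in DKO. The groups did not overlap for either gene, but the share of all genes without overlap was not counted. DKO animal 1 had the higher value of both genes. The log2 fold change was 1.16 (SE 0.215, 2.23-fold, adjusted p = 0.00559) for Malat1 and 1.09 (SE 0.268, 2.12-fold, adjusted p = 0.0174) for Neat1 in edgeR's quasi-likelihood test with Benjamini-Hochberg adjustment, which is the test behind every adjusted p here unless another is named. In this comparison 35.9% of the 15088 genes tested passed, 18.8% higher and 17.1% lower (2841 and 2580 genes, against 2138 and 2936 without TMM), so a call alone was common. Malat1 had a larger log2 fold change than 90.3% of the genes and Neat1 than 89.6%. The Neat1 difference fell to 0.58 without DKO animal 1 and kept its call (adjusted p = 0.0150), in a fit where the remaining DKO library was assumed to vary like the controls. Both calls were lost when all 12 libraries were fitted together, with 1.12 (adjusted p = 0.309) for Malat1 and 1.05 (adjusted p = 0.0653) for Neat1. Each p-value measures the spread between 2 animals a group, and in such bulk samples fewer cells of a type and less RNA per cell cannot be told apart.

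Genes for paraspeckle proteins that passed in input were lower in DKO. Of 23 such genes, all tested, 7 fell in DKO (30.4%, against 17.1% of all genes) and 0 rose, with 12 lower and 0 higher at an unadjusted p under 0.05 by edgeR. The median log2 fold change of the list was -0.28, against -0.00094 for all genes tested. Hnrnpr, an RNA-binding protein, changed by -0.99 (adjusted p = 0.00469), Hnrnpa1, a splicing regulator, by -0.71 (adjusted p = 0.0235), Nono, a core paraspeckle protein, by -0.68 (adjusted p = 0.00709), and Rbm14, also needed for paraspeckles, by -0.61 (adjusted p = 0.0164). The other core members did not pass, with -0.37 for Sfpq (adjusted p = 0.0720) and 0.21 for Pspc1 (adjusted p = 0.345). Without DKO animal 2 the median of the list was -0.37, and the list without DKO animal 1 is not given here. The named genes that passed had fewer raw counts in the input of DKO animal 1 than of animal 2. These were 194 and 298 for Hnrnpr, 327 and 557 for Hnrnpa1, 780 and 1061 for Nono, and 232 and 328 for Rbm14.

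The genes for proteins of nuclear speckles, the bodies where Malat1 is found, were near the background. Of 21 such genes 3 fell (14.3%, against 17.1% of all genes) and 0 rose (7 lower and 1 higher at an unadjusted p under 0.05 by edgeR), with a median of -0.07. The 3 were the splicing factor Srsf2 (-0.64, adjusted p = 0.00639), Luc7l3 (-0.41, adjusted p = 0.0265) and Pnn (-0.40, adjusted p = 0.0380). Without DKO animal 2 the median was -0.03, and the list without DKO animal 1 is not given here. Of 15 factors that process or protect the 3′ ends, which include the RNase P subunits, 1 fell and 0 rose, also at an unadjusted p under 0.05. It was Rpp21 (-0.59, adjusted p = 0.0258), a protein subunit of RNase P. The median of the list was -0.11, and -0.27 without DKO animal 2.

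Other lncRNAs that passed in input went both ways. Of the 10 tested other nuclear lncRNAs 8 lay below 0, with a median of -0.27 against -0.00094 for all genes. Of the 9 tested cytoplasmic or exported lncRNAs 6 lay below 0, with a median of -0.28. Of the 10 tested among 16 other nuclear lncRNAs, Pvt1 rose by 2.93 (adjusted p = 9.35e-04) from 10 and 10 counts in control to 54 and 92 in DKO, while Dleu2 changed by -0.99 (adjusted p = 0.00251) and Kcnq1ot1, an imprinted antisense transcript, by -0.61 (adjusted p = 0.00570). Xist, the RNA that coats the inactive X chromosome, had a log2 fold change of -0.08 (adjusted p = 0.691). Among the 125 other lncRNA genes that averaged 50 counts or more, 24 were higher and 28 lower, 19.2% and 22.4%, near the shares over all genes.

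The genes around Malat1 and Neat1 went both ways in input. Within 100 kb of either gene lie 12 protein-coding genes that could be tested. Of these 3 were called higher (25%, against 18.8% of all genes) and 2 lower (16.7%, against 17.1%), with a median of 0.30. Among them Ehbp1l1 (0.93, adjusted p = 0.00170) and the kinase gene Map3k11 (0.53, adjusted p = 0.0136) rose, while Cdc42ep2 (-1.35, adjusted p = 3.19e-04) and the mitochondrial carrier gene Slc25a45 (-1.16, adjusted p = 7.68e-04) fell. Frmd8, the nearest at 4224 bases from Neat1, did not pass, at -0.23 (adjusted p = 0.247).

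In control animals both transcripts were below input in every dsRNA pulldown, and lower with K1 than with J2 in each animal. Within each animal, the log2 CPM of Malat1 in the J2 pulldown minus that in its input was -1.57 and -1.55 in controls 1 and 2, and with K1 it was -3.05 and -3.42. For Neat1 the values were -2.13 and -1.99 with J2 and -3.32 and -3.26 with K1. All 8 values were below 0, and the control animals lay close to each other.

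**Figure D2:**
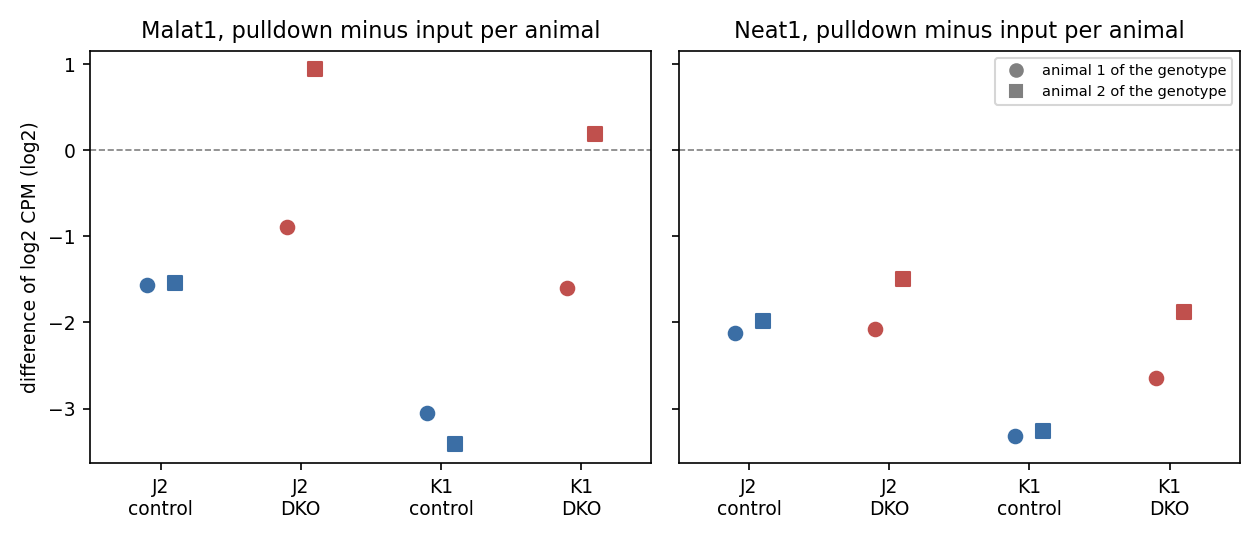
Difference of log2 CPM between a pulldown and the input of the same animal, for Malat1 (left) and Neat1 (right), by antibody and genotype, with a point per animal and a dashed line at no difference. The control animals lie close together below the line, and DKO animal 2 is the highest for each gene and antibody. For Malat1 it lies above the line, at 0.94 with J2 and 0.19 with K1, and without TMM the K1 value would lie at -0.092.

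In the fits, K1 depletion in control passed for both genes, with a log2 fold change of -3.30 (SE 0.498, 9.85-fold lower, adjusted p = 9.17e-04) for Malat1 and -3.38 (SE 0.322, 10.4-fold lower, adjusted p = 1.50e-04) for Neat1. There 39.8% of the 15908 genes tested passed, 19.7% higher and 20.1% lower (3134 genes higher and 3190 lower, against 2149 and 3819 without TMM and 2417 and 3849 when mitochondrial genes were left out of the scaling). Only 5.14% of genes had a lower log2 fold change than Malat1 and 4.83% a lower one than Neat1. With J2 the depletion passed for Neat1 (-2.06, SE 0.379, 4.16-fold lower, adjusted p = 0.00703) and not for Malat1 (-1.55, SE 0.677, adjusted p = 0.118), where 29.8% of 15923 genes passed, 14.6% lower (2426 higher and 2320 lower, against 1492 and 2803 without TMM). The fit takes its spread from the DKO libraries too. Without DKO animal 1 or 2 the Malat1 difference passed, at -1.68 (adjusted p = 7.80e-06) and -1.54 (adjusted p = 8.70e-06), and in the 4 control libraries alone it was -1.56 (adjusted p = 1.67e-05). Leaving out control animal 1 or 2 ended the Neat1 call with J2 (adjusted p = 0.391 and 0.392; edgeR called 0 genes, with 2262 and 2085 at an unadjusted p under 0.05) and the Malat1 call with K1 (adjusted p = 0.0999 and 0.122).

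More of the other lncRNA genes passed below input than above it with K1. Of the 126 other lncRNA genes that averaged 50 counts or more over the 12 libraries, 52 were lower in control K1 than in input (41.3%, against 20.1% of all genes) and 30 were higher, with a median of -0.48. With J2, 28 were lower (22.2%, against 14.6%) and 36 higher (28.6%, against 15.2%), with a median of -0.08. Over all other lncRNA genes tested, the weakly counted ones included, 688 of 1203 were lower and 50 higher with K1 (median -2.07), and 390 of 1223 were lower and 83 higher with J2 (median -1.02). A gene counted in input alone could pass the filter and had to be lower in the pulldown, so these larger counts are a description. Of the 11 tested other nuclear lncRNAs 6 were lower with K1 and 1 higher, with a median of -1.71 against 0 for all genes. Xist changed by -4.71 with K1 (adjusted p = 8.48e-05) and by -3.18 with J2 (adjusted p = 0.00413), and Mir17hg changed by -3.18 with K1 (adjusted p = 8.16e-04) and -3.37 with J2 (adjusted p = 0.00342). Kcnq1ot1 changed by -2.29 with K1 (adjusted p = 0.00156). Above input were Tug1, with 2.94 for J2 (adjusted p = 0.00372) and 1.34 for K1 (adjusted p = 0.00198), and with J2 Jpx, at 1.37 (adjusted p = 0.0247) against -0.13 with K1 (adjusted p = 0.824). Of the 9 tested lncRNAs known to be cytoplasmic or exported, 4 were lower and 1 higher with K1, with a median of -1.24.

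In DKO animals Neat1 was below input in each pulldown, and Malat1 was below it in both pulldowns of animal 1. Neat1 was at -2.08 and -1.49 with J2 and at -2.65 and -1.88 with K1 in animals 1 and 2. Malat1 was at -0.89 and 0.94 with J2 and at -1.60 and 0.19 with K1, so with TMM scaling it was below input in animal 1 and above it in animal 2. By share of counts, without TMM, the values were -1.55 and 0.93 with J2 and -2.10 and -0.092 with K1, so the K1 value of animal 2 changed sign with the scaling. For Neat1 the log2 fold change was -1.82 with J2 (SE 0.377, adjusted p = 0.0131), where 25.7% of genes passed and 13.4% were lower (1948 higher and 2140 lower, against 807 and 3019 without TMM). With K1 it was -2.41 (SE 0.310, adjusted p = 5.43e-04), where 35.6% passed and 21% were lower (2325 higher and 3334 lower, against 1392 and 4839 without TMM). The Neat1 call with J2 was lost without control animal 1 (adjusted p = 0.120), without control animal 2 (adjusted p = 0.100), in the 4 DKO libraries alone (adjusted p = 0.101) and with limma voom (adjusted p = 0.125).

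For Malat1 neither DKO difference passed, at 0.19 with J2 (SE 0.662, adjusted p = 0.851) and -0.64 with K1 (SE 0.458, adjusted p = 0.295). With J2 this value averages animals on opposite sides of input under both scalings. Without DKO animal 2 they were -0.86 with J2 (adjusted p = 0.00165) and -1.69 with K1 (adjusted p = 0.00231). Without DKO animal 1 they were 0.83 with J2 (adjusted p = 0.00256) and 0.038 with K1 (adjusted p = 0.906).

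The change of enrichment between genotypes passed in 1 of 4 cases. With K1, depletion of Malat1 was weaker in DKO than in control by 2.66 on the log2 scale (SE 0.656, 6.30-fold, adjusted p = 0.0448), where 5.47% of genes passed, 1.37% higher and 4.1% lower (218 higher and 652 lower, against 172 and 1137 without TMM and 205 and 318 with DESeq2's size factors). Both DKO animals lay above both controls by the same-animal values given above, and the share of all genes that did so was not counted. With the animal as a block the value was 2.53 (adjusted p = 0.0177) and 1912 genes passed in place of 870. The call was lost without control animal 1 (2.83, adjusted p = 0.652), without control animal 2 (2.43, adjusted p = 0.541), with DESeq2's size factors in edgeR (2.82, adjusted p = 0.0504) and in a fit of all 12 libraries (2.65, adjusted p = 0.169), and without DKO animal 2 it was 1.60 (adjusted p = 0.0232). For Neat1 the K1 change was 0.97 (SE 0.418, unadjusted p = 0.0427, adjusted p = 0.197), and without DKO animal 1 it was 1.35 (adjusted p = 0.00797).

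With J2 the change did not pass for either gene, at 1.74 for Malat1 (SE 0.943, adjusted p = 0.277) and 0.24 for Neat1 (SE 0.517, adjusted p = 0.803). There 2.71% of genes passed, 0.772% higher and 1.94% lower (123 higher and 309 lower, against 70 and 602 without TMM), and with the animal as a block edgeR called 0, with 4074 genes at an unadjusted p under 0.05, while DESeq2 without a block called 2018. The Malat1 change with J2 was 2.50 without DKO animal 1 (adjusted p = 6.06e-05) and 0.68 without DKO animal 2 (adjusted p = 0.0170). The Neat1 change with J2 was 0.58 without DKO animal 1 (adjusted p = 0.0340) and -0.0070 without DKO animal 2 (adjusted p = 0.988). The K1 change was above 0 in 10 of the 11 tested other nuclear lncRNAs (median 1.41, against -0.20 for all genes), with 0 called higher. It was above 0 in 7 of 9 cytoplasmic or exported lncRNAs (median 1.59), with 1 called higher. Over the 126 other lncRNA genes that averaged 50 counts or more the median was -0.27. Without DKO animal 2 the medians of these lists were 0.82, 0.86 and -0.28, in the same order, with 12 nuclear lncRNAs tested. Tug1, the 1 nuclear lncRNA called lower, moved against Malat1, at -1.38 (adjusted p = 0.0451). Xist did not pass (1.15, adjusted p = 0.151).

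**Figure D3:**
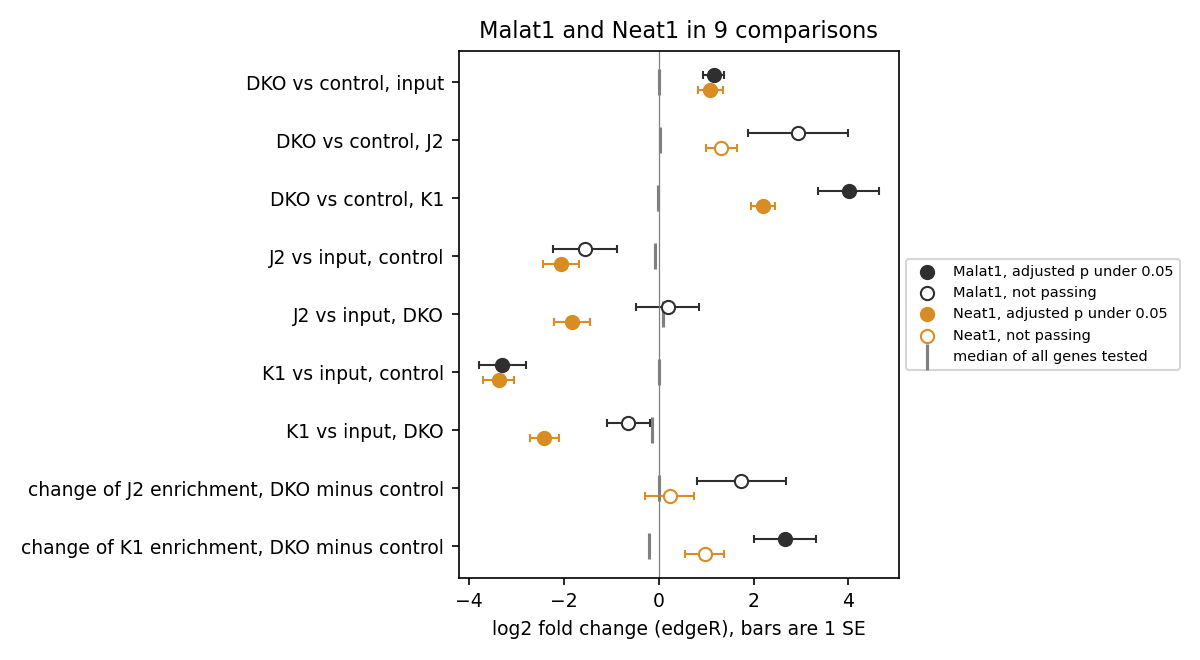
Log2 fold changes of Malat1 (black) and Neat1 (orange) in 9 comparisons, with bars of 1 SE, filled points where the adjusted p was under 0.05 and grey ticks at the median of all genes tested. Values for DKO against control are above 0 for both genes, and every pulldown against input value is below 0 except that of Malat1 for J2 in DKO, at 0.19.

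Set side by side in the pulldowns themselves, which share the antibody and not the input, both transcripts had higher levels in DKO. In K1 libraries Malat1 stood at 295 and 233 CPM in control and 2037 and 5148 CPM in DKO, and Neat1 at 25.2 and 23.0 CPM in control and 102 and 92.7 CPM in DKO. Neither gene's groups overlapped, and the share of all genes without overlap was not counted. The log2 fold change was 4.00 for Malat1 (SE 0.644, 16.0-fold, adjusted p = 0.00649) and 2.20 for Neat1 (SE 0.251, 4.60-fold, adjusted p = 0.00262), where 27.1% of 12888 genes passed, 13.1% higher (1694 higher and 1795 lower, against 1148 and 3045 without TMM). Of the genes tested, 97.95% had a lower log2 fold change than Malat1 and 92.8% a lower one than Neat1. Of the 10 tested other nuclear lncRNAs, 4 were called higher (40%, against 13.1% of all genes) and 1 lower (10%, against 13.9%). The median of that list was 1.28, and 0.52 without DKO animal 2. The Malat1 call was lost without control animal 2 (3.79, adjusted p = 0.0622).

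In J2 libraries Malat1 stood at 822 and 854 CPM in control and at 3341 and 8620 CPM in DKO. Neat1 stood at 57.8 and 55.7 CPM in control and at 150 and 122 CPM in DKO. Neither gene passed, with 2.94 for Malat1 (SE 1.06, adjusted p = 0.116) and 1.32 for Neat1 (SE 0.325, adjusted p = 0.0560). In this comparison 12.2% of 13181 genes passed, 6.04% higher and 6.17% lower (796 higher and 813 lower, against 449 and 927 without TMM). Without DKO animal 1 both passed, at 3.44 for Malat1 (adjusted p = 4.64e-06) and 1.18 for Neat1 (adjusted p = 2.28e-04). Without DKO animal 2 both passed as well, at 2.05 (adjusted p = 9.97e-07) and 1.47 (adjusted p = 9.30e-06). In these fits the remaining DKO library was assumed to vary like the controls.

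The ratio of the pair within a library, which needs no scaling between libraries, set the DKO pulldowns apart. For each Neat1 count there were 9.65 and 11.3 Malat1 counts in control input and 9.71 and 13.1 in DKO input, and these overlapped. The J2 libraries of controls had 14.2 and 15.3 and those of DKO animals 22.2 and 70.8, and for K1 the ratios were 11.7 and 10.1 against 20.1 and 55.5. DKO animal 2 had the highest ratio in all 3 kinds of library, and in pulldowns both DKO values were above both control values. The log2 ratio of Neat1 to Malat1 differed between DKO and control by -0.12 in input (two-sided exact permutation test, p = 0.667), -1.42 in J2 (exact p = 0.333) and -1.62 in K1 (exact p = 0.333). With 2 animals against 2 the smallest p this test can give is 0.333, so no difference could pass.

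**Figure D4:**
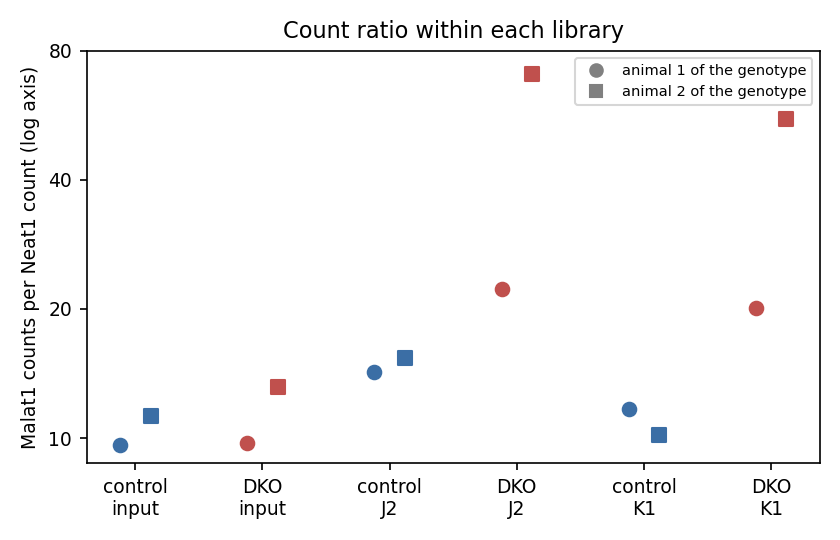
Malat1 counts for each Neat1 count in the 12 libraries (log axis), with control in blue, DKO in red and a point per animal. The inputs and control pulldowns lie between 9.65 and 15.3, and the DKO pulldowns at 20.1 to 22.2 in animal 1 and 55.5 to 70.8 in animal 2.

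The DKO pulldowns that held more Malat1 also differed in other measures. Reads aligned to several places, which the count tables list apart from genes, were 5.54% to 6.56% of the listed reads in control pulldowns, 15.8% (J2) and 25.9% (K1) in DKO animal 1, and 29.5% (J2) and 46.7% (K1) in DKO animal 2. The smallest totals and the largest Malat1 shares were those of DKO animal 2. The mRNAs that encode nuclear speckle proteins also differed between the DKO animals. Their median J2 minus input value was -0.47 in animal 1 and 1.04 in animal 2, against -0.50 and -0.56 in the controls. That list is one of protein-coding genes and does not say where their RNAs lie. The other nuclear lncRNAs were at -0.23 and 0.66 in DKO animals 1 and 2, against -0.58 and -0.52 in the controls. The cytoplasmic or exported lncRNAs were at -0.99 and 1.33 in DKO animals 1 and 2, against -1.51 and -1.59 in the controls. The paraspeckle list was at -0.38 and 0.30 in DKO, and epithelial markers went the other way, at 0.54 and -0.54. Chosen after their values were seen, Srsf2 was at 1.01 and 3.42, Pnisr at -0.93 and 2.10, and the nuclear lncRNA Firre at 0.05 and 2.73 in DKO animals 1 and 2. Xist remained below input in both, at -3.85 and -2.34. The part of depth, of reads aligned to several places and of the difference between DKO animals in the Malat1 values was not tested.

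J2 pulldowns held more of both transcripts than K1 pulldowns of control animals, but the call depended on the block. Without it, the log2 fold change of J2 over K1 in control was 1.70 for Malat1 (adjusted p = 0.393) and 1.27 for Neat1 (adjusted p = 0.288), and edgeR called 0% of 14285 genes, with 1807 at an unadjusted p under 0.05, while DESeq2 called 333 genes and limma voom 5096. With the animal as a block 3959 genes passed, Malat1 at 1.71 (adjusted p = 0.00666) and Neat1 at 1.27 (adjusted p = 0.00132) among them. In DKO the differences were 0.74 for Malat1 (adjusted p = 1) and 0.49 for Neat1 (adjusted p = 1), and 0% of genes passed, with 529 at an unadjusted p under 0.05, 3 called by DESeq2 and 8 with the block. Without DKO animal 1 or 2, whose libraries share the estimate of the spread, the control differences passed without a block, at 1.68 for Malat1 and 1.25 for Neat1 in both cases (adjusted p = 0.00205 to 0.00258).

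Over the 12 libraries, which come from 4 animals and share depth and genotype, the log2 CPM of Malat1 and Neat1 had a Pearson's r of 0.824. Among 9377 genes with a mean of at least 50 counts, the 5 most like Malat1 were Oas1b (r = 0.935), Rhbdl2 (0.932), Leng8 (0.924), H2-Q5 (0.924) and Vezt (0.923). The 5 most like Neat1 were Megf11 (0.971), Map3k12 (0.956), Trim24 (0.947), Tmem87a (0.926) and Slc51b (0.925). Without TMM, Oas1b and Rhbdl2 stayed among the 5 most like Malat1, and Megf11, Map3k12 and Trim24 among those most like Neat1. These values describe a shared pattern over the libraries and carry no test.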

How the data were processed

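RNA of 12 libraries was analysed: input, J2 pulldown and K1 pulldown from 2 control and 2 KAT2A/KAT2B DKO mice. Per the labels, the authors deposited whole-number read counts per gene for each library, made without using strand from libraries with random priming, ribosomal RNA depletion and molecular identifiers (UMIs). Per the submitters' processing notes, the tools were FastQC, STAR 2.7.10b, SAMtools 1.17, UMI-tools 1.1.4, HTSeq 2.0.2, DESeq2 1.40.1, edgeR 3.42.2 and deepTools 3.5.2, with the builds mm10 and GRCm38.p4. Their order and settings, the annotation release and how the UMIs entered the counts are not given in the sources used here. Reads of overlapping or antisense genes cannot be separated in unstranded counts. Rows that name no gene were left out of library sizes and held 18.7% to 61.2% of the listed reads. Gene identifiers matched GENCODE M21 for 48144 of 48526 rows without the version suffix. No column of another series was present.

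Counts were tested in R 4.3.3 with edgeR 4.0.16 (quasi-likelihood test, TMM, filterByExpr set to 10 counts, Benjamini-Hochberg adjustment over all genes, threshold 0.05). DKO and control were compared in 4 libraries (2 residual degrees of freedom), and pulldown against input, its change between genotypes and J2 against K1 in 8 (4 residual degrees of freedom). The log2 CPM values used a prior count of 2. Alternatives were DESeq2 1.42.0, limma voom (limma 3.58.1), other scalings, no filter and thinning to the smallest library. Further alternatives were a fit of all 12 libraries, the animal as a block and each animal left out. Fits of a single genotype's libraries and list medians without DKO animal 2 were chosen after seeing the data. The description labels give an animal code shared by the input, J2 and K1 libraries, so replicate numbers pair libraries within a genotype. Deviations of same-animal libraries from their group means correlated at 0.208 to 0.494 across genes. Animals of different genotypes share only a number. Replicates were different libraries, with a chi-square per degree of freedom of at least 11.0 between them. The scripts were tested on simulated counts.

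The genes named are Malat1 and Neat1, the called members of each list that changed most, and the first genes listed, and some list members are not reported here. Members and lists were chosen with earlier results of these data known. Sequences were read from the GENCODE M21 transcripts, repeats found with blastn 2.17.0+, and duplexes predicted with RNAduplex 2.7.2.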

Additional observations from a re-analysis of the deposited data

Results flagged for a closer look

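The change of K1 enrichment of Malat1 between genotypes, DKO minus control, was 2.66 on the log2 scale by edgeR's quasi-likelihood test of the difference itself (adjusted p = 0.0448), which is why it is listed. Both DKO animals (-1.60 and 0.19) lay above both control animals (-3.05 and -3.42) in the same-animal difference of K1 and input. The share of all genes separated in this way was not counted. By share of counts, without TMM, the values were -2.10 and -0.092 against -3.33 and -3.76.

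Reads aligned to several places belong to no gene and entered no comparison. They made up 15.8% and 29.5% of the listed reads in the J2 pulldowns of DKO animals 1 and 2 and 25.9% and 46.7% in their K1 pulldowns. All 4 values were above those of the control pulldowns made with the same antibody, 5.54% and 5.98% for J2 and 6.02% and 6.56% for K1. The inputs held 6.97% and 7.27% (control) and 7.82% and 8.05% (DKO). Malat1 and Neat1 reads counted here are those placed at a single gene.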

How the results depend on the processing

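In DKO against control, a fit of all 12 libraries gave 1.12 (Malat1) and 1.05 (Neat1) in input, both no longer called. In J2 libraries differences were called by DESeq2 (2.97, adjusted p = 2.14e-05, and 1.38, adjusted p = 0.0393), by limma voom (Malat1 2.80, adjusted p = 0.0296) and by the 12-library fit (2.83, adjusted p = 0.00657, and 1.26, adjusted p = 0.0122). J2 against input in control was called for Malat1 by DESeq2 (-1.59, adjusted p = 0.00408), limma voom (-1.55, adjusted p = 1.38e-05), without a filter (-1.49, adjusted p = 0.0444) and in control libraries alone (-1.56). In DKO, Neat1 lost its call with limma voom (-1.76) and in DKO libraries alone (-1.92). The Malat1 value of 0.19 turned to -0.044 without a filter and to -0.022 with the replicate block on thinned counts. The Malat1 change of K1 enrichment was 2.82 with DESeq2's size factors and 2.65 in the 12-library fit, not called. The Neat1 change of J2 enrichment turned to -0.061 without a filter. J2 against K1 in control was called for Neat1 by DESeq2 (1.38, adjusted p = 1.07e-04), and for Malat1 and Neat1 by limma voom (1.71 and 1.27), with the animal as a replicate block (1.71 and 1.27) and with that block on thinned counts (1.88 and 1.36). The animal block changed no other call of these genes. The causes were not tested.

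Leaving out each animal in turn gave these ranges for Malat1 and Neat1: DKO against control 0.92 to 1.36 and 0.58 to 1.46 (input), 2.05 to 3.44 and 1.18 to 1.47 (J2), 3.10 to 4.53 and 2.09 to 2.26 (K1). J2 against input ranged from -1.68 to -1.53 and -2.18 to -1.98 in control, and from -0.86 to 0.83 and -2.06 to -1.60 in DKO. K1 against input ranged from -3.51 to -3.10 and -3.39 to -3.36 in control, and from -1.69 to 0.038 and -2.74 to -2.04 in DKO. The changes of enrichment ranged from 0.68 to 2.50 and -0.0070 to 0.58 (J2), and 1.60 to 3.35 and 0.63 to 1.35 (K1). J2 against K1 ranged from 1.63 to 2.06 and 1.25 to 1.47 in control.

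The number of genes called is given here with its range over the alternatives that keep all 4 animals. For DKO against control it was 5421 in input (1675 to 6462), 1609 in J2 (1132 to 5993) and 3489 in K1 (2509 to 4888). For J2 against input it was 4746 in control (2691 to 10325) and 4088 in DKO (108 to 5464), and for K1 against input 6324 (2971 to 9372) and 5659 (1572 to 6366). For the change of K1 enrichment it was 870 (59 to 1912). Leaving out each animal in turn, the counts ranged from 3615 to 6227 in input, 177 to 8635 in J2 and 1150 to 5819 in K1 for DKO against control. For J2 against input they ranged from 0 to 10140 in control and 346 to 7790 in DKO, for K1 against input from 281 to 9191 and 3005 to 5970, and for the changes of enrichment from 0 to 6990 (J2) and 0 to 3803 (K1). The lowest counts of these comparisons were those without a control animal. Where edgeR called 0 in these fits, 1063 to 2262 genes were at an unadjusted p under 0.05, and no other tool was run without an animal. A fit with the replicate number as a block across genotypes gave 1.02 for Neat1 in input (adjusted p = 0.00122) and changed no call of these genes. Same-numbered animals of the 2 genotypes did not deviate together (r = 0.0261, -0.0879 and -0.0970 in input, J2 and K1). Without TMM the median over all genes was -0.40 for DKO against control in K1 (-0.02 with TMM), -0.44 for J2 against input in control (-0.07) and -0.48 for K1 against input in DKO (-0.14). At 205 to 843 counts, Neat1 in the pulldowns carries the most counting error.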

Other observations

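RNAs of paraspeckle and nuclear speckle proteins were tested in the pulldowns of control animals too. Of the 23 paraspeckle proteins, 6 were lower and 2 higher with J2 than in input, and 5 lower and 5 higher with K1, with medians of -0.47 and -0.13. As shares these were 26.1% lower and 8.7% higher with J2, against 14.6% and 15.2% of all genes, and 21.7% each way with K1, against 20.1% and 19.7%. Hnrnph3, an RNA-binding protein of paraspeckles, changed by -2.04 with J2 (adjusted p = 0.00562) and -1.12 with K1 (adjusted p = 0.00778). Nudt21, a subunit of the complex that sets poly(A) site choice, rose by 1.02 (adjusted p = 0.0273) and 0.91 (adjusted p = 0.0219), and Smarca4, a chromatin remodeller, by 1.19 with K1 (adjusted p = 0.00257).

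Among 21 nuclear speckle proteins, 2 were lower and 3 higher with J2 and 6 lower and 3 higher with K1. The shares were 9.52% lower and 14.3% higher with J2, against 14.6% and 15.2% of all genes. With K1 they were 28.6% lower and 14.3% higher, against 20.1% and 19.7%. The kinases Clk1 and Clk4, which phosphorylate splicing factors, changed by -2.26 (adjusted p = 0.0162) and -2.02 (adjusted p = 0.0337) with J2, and by -2.51 (adjusted p = 8.12e-04) and -2.57 (adjusted p = 5.53e-04) with K1. Son and Srrm2, large proteins that form the core of speckles, rose with J2 by 1.80 (adjusted p = 0.0316) and 1.34 (adjusted p = 0.0400), and did not pass with K1, at 0.31 (adjusted p = 0.366) and 0.39 (adjusted p = 0.275). All these adjusted p-values are from edgeR.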
